A study of Homo sapiens with 6 samples.

Results

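The 9 genes described here encode transcription factors of basal and stratified epithelium: TP63, TFAP2A, TFAP2C, GRHL2, GRHL3, OVOL1, EHF, ELF3 and SOX15. They were chosen by name, 9 of the 20033 protein coding genes annotated in GENCODE release 44 on the assembled chromosomes, and each locus was taken as the gene body with 20 kb on either side. The assay was ATAC-seq, in which Tn5 transposase cuts accessible DNA, and the cells were MCF10A, an established and non-tumorigenic human mammary epithelial cell line. Wild-type cells were first held for 30 min in a phosphate-free buffered salt solution and were then left untreated in it (control), given 50 μM of the cell-permeable Zn2+ chelator tris(2-pyridylmethyl)amine (TPA), or given 30 μM ZnCl2, each for 30 min. Each of the 3 conditions had 2 libraries, 6 in all, from 1 cell line, and the study calls them biological replicates in one place and technical in another, so that p-values measure the spread between these libraries. The authors ran HMMRATAC on every library on its own, and the deposited lists give a position and a whole-number score per region but no read counts, so that sequencing depth is unknown.

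As background, p63 is the master regulator of basal epithelial identity, and its gene has an upstream promoter for the isoforms with a transactivation domain (TAp63) and an internal promoter for the shorter ΔNp63 isoforms, which are the predominant ones in basal cells. AP-2 factors (TFAP2A, TFAP2C) act widely in ectoderm and mammary epithelium, the grainyhead-like factors (GRHL2, GRHL3) maintain epithelial junctions and barrier, and OVOL1 is a zinc-finger repressor of mesenchymal genes. EHF and ELF3 are epithelium-specific ETS factors, and SOX15 is a member of the SOX family found in keratinocytes.

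The lists differed in length before any gene was considered. They held between 18887 regions (ZnCl2 replicate 2) and 44641 regions (control replicate 2) on chromosomes 1 to 22, X and Y, and this difference in yield lay within conditions as much as between them. A score was therefore read as a percentile, the share of a library's own regions with a lower score. Joining the regions of the 6 lists that overlapped or touched gave 49527 merged regions. Markers were checked at the canonical start site, that is within 1000 bp upstream of the start of the representative transcript. Of 9 basal mammary epithelial markers, 3 were open in all 6 libraries, LAMB3 and ITGB4 among them, and the other 6, such as KRT5 and KRT14, in 4 or 5. The start sites of the leukocyte genes PTPRC, CD3E and SPI1, the endothelial genes PECAM1 and CDH5 and the hormone receptors ESR1 and PGR were closed in every library, while FOXA1, listed with the hormone receptors, was open in all 6. Of 4 general epithelial genes KRT18 was open in all 6, EPCAM in 4, and CDH1 and KRT8 in 3. Of the fibroblast genes, COL1A1 was open in 1 library and PDGFRA in 2.

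The DNA just upstream of 4 start sites is shown because it spans the range found among these genes, from closed in every library (TP63, EHF) to open in every library (TFAP2A, GRHL3). Sequences are 250 bases upstream of the start, 5′ to 3′ on the strand of the gene, from the RefSeq promoter table on GRCh38.p14, which holds 5 of the 9 genes. Capitals mark CpG dinucleotides. TP63 lies at chr3:189631139-189631388 on the plus strand with 6 CpG, EHF at chr11:34624007-34624256 on the plus strand with 4, TFAP2A at chr6:10419660-10419909 on the minus strand with 13, and GRHL3 at chr1:24322790-24323039 on the plus strand with 10. The median of all 35116 windows of this length in the table was 11.
TP63, upstream of the TAp63 start: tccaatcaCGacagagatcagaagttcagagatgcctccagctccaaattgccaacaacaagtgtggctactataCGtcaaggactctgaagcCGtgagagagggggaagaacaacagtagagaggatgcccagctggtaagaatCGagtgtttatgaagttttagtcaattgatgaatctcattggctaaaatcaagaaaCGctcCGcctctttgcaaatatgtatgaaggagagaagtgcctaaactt
EHF, upstream of an alternative start: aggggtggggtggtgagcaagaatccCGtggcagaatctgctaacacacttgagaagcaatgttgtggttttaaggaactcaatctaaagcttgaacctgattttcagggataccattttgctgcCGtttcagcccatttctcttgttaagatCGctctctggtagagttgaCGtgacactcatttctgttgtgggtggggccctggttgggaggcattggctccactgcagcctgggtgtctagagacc
TFAP2A, upstream of the most distal start: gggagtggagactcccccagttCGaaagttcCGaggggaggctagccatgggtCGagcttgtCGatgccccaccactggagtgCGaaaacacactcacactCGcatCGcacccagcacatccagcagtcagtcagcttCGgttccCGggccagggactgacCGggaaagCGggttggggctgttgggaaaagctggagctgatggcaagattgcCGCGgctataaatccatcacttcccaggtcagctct
GRHL3, upstream of the internal start: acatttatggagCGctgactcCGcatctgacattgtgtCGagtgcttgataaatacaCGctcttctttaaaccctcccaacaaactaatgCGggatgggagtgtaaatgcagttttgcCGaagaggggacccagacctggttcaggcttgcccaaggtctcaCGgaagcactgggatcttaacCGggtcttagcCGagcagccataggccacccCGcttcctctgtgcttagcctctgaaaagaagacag

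The 4 regions whose sequence follows were open in all 6 libraries and lie at genes with closed, mixed and open start sites. All 4 hold a match to the letters marked, which several other regions open in all 6 libraries do not. Each is the 300 bp at the center of a merged region, on the plus strand of hg38, with capitals for matches to the AP-1 letters TGANTCA or the AP-2 letters GCCNNNGGC on either strand. The first lies in the fourth intron of TP63 at chr3:189839466-189839765 and the second in the sixth intron of EHF at chr11:34654291-34654590. The third, labelled GRHL3 end, is at chr1:24365137-24365436. It lies beyond the 3′ end of GRHL3 at 24364482, which only its merged region reaches, and overlaps STPG1. The fourth lies within TFAP2C at chr20:56630581-56630880, downstream of both start sites, which its merged region covers.
TP63 intron: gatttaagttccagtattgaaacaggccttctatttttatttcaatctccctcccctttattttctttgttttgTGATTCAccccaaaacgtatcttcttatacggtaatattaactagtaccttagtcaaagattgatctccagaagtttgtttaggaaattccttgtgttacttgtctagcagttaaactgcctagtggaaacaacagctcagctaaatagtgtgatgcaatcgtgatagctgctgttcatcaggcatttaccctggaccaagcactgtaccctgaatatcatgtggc
EHF intron: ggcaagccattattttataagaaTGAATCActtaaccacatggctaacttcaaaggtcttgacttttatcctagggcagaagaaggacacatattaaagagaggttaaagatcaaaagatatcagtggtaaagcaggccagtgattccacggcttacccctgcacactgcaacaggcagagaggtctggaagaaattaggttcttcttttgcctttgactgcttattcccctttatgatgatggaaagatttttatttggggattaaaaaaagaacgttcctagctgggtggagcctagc
GRHL3 end: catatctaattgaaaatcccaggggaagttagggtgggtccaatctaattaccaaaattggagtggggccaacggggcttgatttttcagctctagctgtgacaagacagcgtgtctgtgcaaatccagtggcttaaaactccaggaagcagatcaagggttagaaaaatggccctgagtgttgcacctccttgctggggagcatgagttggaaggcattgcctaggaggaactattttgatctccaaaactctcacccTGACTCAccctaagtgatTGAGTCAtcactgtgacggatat
TFAP2C start: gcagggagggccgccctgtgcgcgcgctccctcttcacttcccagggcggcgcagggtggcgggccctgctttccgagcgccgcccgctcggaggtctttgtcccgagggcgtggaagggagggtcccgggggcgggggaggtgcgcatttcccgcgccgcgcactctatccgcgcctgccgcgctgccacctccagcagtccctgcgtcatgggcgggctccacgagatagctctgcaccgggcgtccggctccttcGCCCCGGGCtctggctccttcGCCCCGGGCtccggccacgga

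The TP63 and EHF windows each hold 1 AP-1 match, the GRHL3 window 2 AP-1 matches and the TFAP2C window 2 AP-2 matches, which in the case of TFAP2C lie in the gene of an AP-2 factor. Over all loci of the 9 genes, 17 of 60 regions (28.3%) held an AP-1 match in the central 300 bp, against 27% of all 49527 merged regions. AP-2 letters were found in 13 regions (21.7%, against 15% of all) and the short ETS core GGAAG in 42 (70%, against 64.8%). SOX letters ACAAT occurred in 20 regions (33.3%, against 35.7%). OVOL letters CCGTTA occurred in 1 region (1.67%), at the promoter of AP5B1 upstream of OVOL1, against 1.9% of all regions. Neither the grainyhead letters AACCNGTT (1.92% of all), the longer ETS letters ACCGGAAG (0.646%), which contain the core, nor a pair of CATG cores 6 bases apart as in sites of the p53 family (1.18%) were found in any of the 60. A match is a description of the letters, not evidence of a bound site.

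Canonical start sites were open in all 6 libraries at 2 of the 9 genes (TFAP2A and TFAP2C), in no library at 3 (TP63, OVOL1 and EHF) and in some libraries at 4 (SOX15 in 5, ELF3 in 4, GRHL3 in 2, GRHL2 in 1). Over all protein coding genes, 43.5% of canonical starts were open in all 6 and 36.1% in none. Counting every annotated start, with starts closer than 500 bp joined, the 9 genes have 33 start sites, of which 9 were open in all 6 libraries, 12 in none and 12 in some. The number of canonical starts open per library was 3 and 5 in the controls, 4 and 5 with TPA, then 5 and 2 under ZnCl2, lowest in the shortest list.

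**Figure D1:**
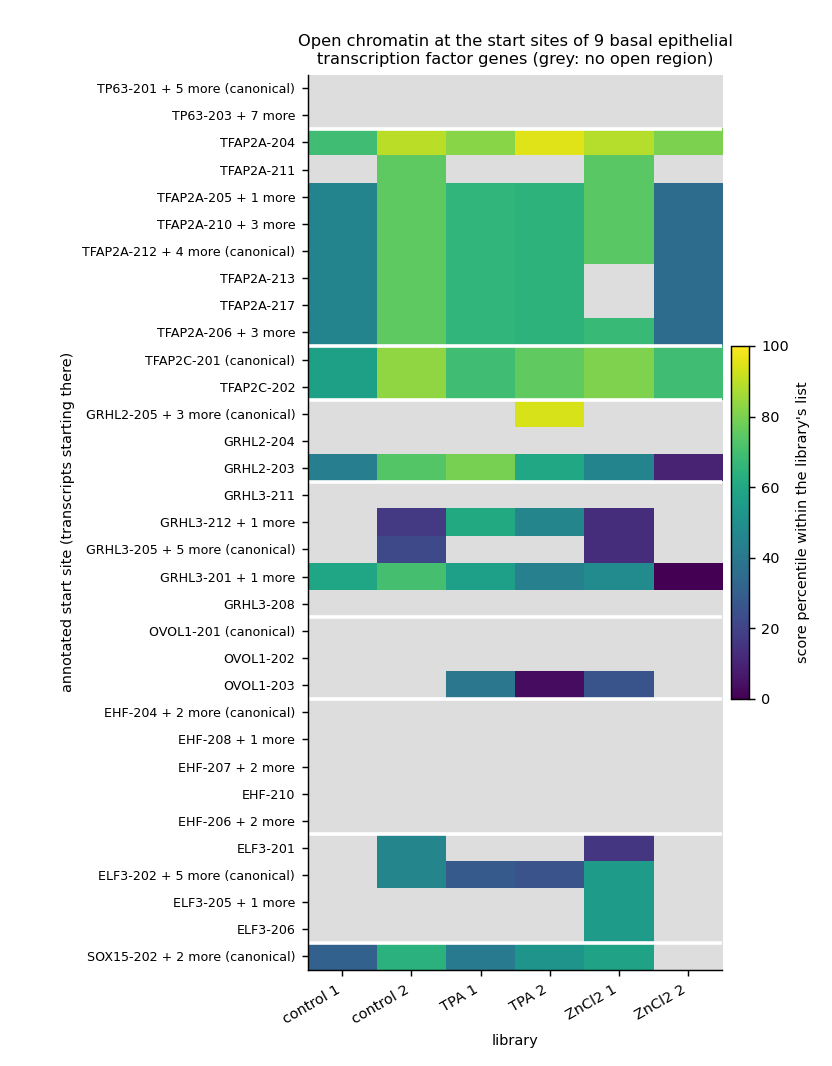
Score percentile of the open region at each of the 33 annotated start sites (rows, grouped by gene) in the 6 libraries (columns), with grey where no region overlapped the 1000 bp upstream of the start. The rows of TP63 and EHF are grey throughout, and those of TFAP2A and TFAP2C are filled in nearly every library.

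At TP63 (chromosome 3, 189631389 to 189897276, plus strand) neither promoter was open in any library: the TAp63 start and the internal start of the ΔNp63 transcripts at 189789659 to 189789801 had no call in the 6 lists. The open chromatin of the gene lay in its introns and downstream. Of 7 merged regions, 1 was in the first intron, 4 in the fourth intron, all downstream of the internal start, and 2 in the downstream flank. A single region was open in all 6 libraries, in the fourth intron at 189838921 to 189840310, 208.2 kb from the TAp63 start, the one whose sequence is shown above. Its percentile was 42.6 and 64.7 in the controls, 33.1 and 38.3 with TPA, then 25.8 and 13.9 under ZnCl2. Both treated groups lay below the controls in percentile. The log2 score difference from control was -0.28 ± 0.18 (SE) with TPA and -0.36 ± 0.18 with ZnCl2, with limma adjusted p = 0.361 and 0.35, so that neither exceeded the spread between libraries.

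The number of open regions at TP63 was 5 and 7 in the controls, 7 and 7 with TPA, then 5 and 1 under ZnCl2. The first intronic region (189710371 to 189711420) was open in every library but ZnCl2 replicate 2, at percentiles from 32.5 to 64.8. The downstream region at 189914461 to 189915710 was the one that met the rule for a loss with ZnCl2, being open in both controls (16.8 and 41.2) and both TPA libraries (30.8 and 38.3) and in neither ZnCl2 library. Open regions covered 4570 and 13750 bp of the locus in the controls, 8080 and 6800 bp with TPA, then 7720 and 1390 bp under ZnCl2, and the groups overlapped.

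**Figure D2:**
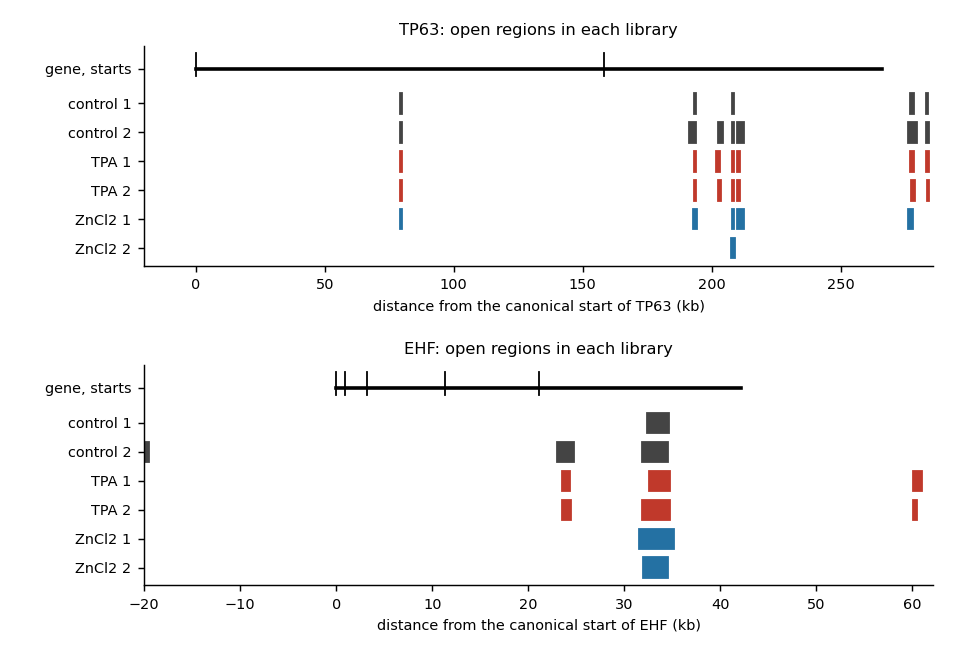
Open regions (blocks) of the 6 libraries (rows) across the loci of TP63 and EHF, by distance from the canonical start in kb, with the gene body as a line and annotated start sites as ticks. No block overlaps a tick, and the regions shared by all 6 libraries lie 208.2 kb and 33.3 kb downstream of the canonical starts of TP63 and EHF.

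EHF (chromosome 11, 34621093 to 34663288, plus strand) likewise had no open promoter. All 5 of its start sites were closed in every library, while its sixth intron held a strong region at 34652631 to 34656250 that was open in all 6. There the percentile was 89.3 and 87.2 in the controls, 96.7 and 95.5 with TPA, then 82.9 and 68.0 under ZnCl2. The TPA libraries were the highest and the ZnCl2 libraries the lowest, with no overlap. On the log2 scale after quantile normalization the scores were 6.66 and 6.33 in the controls, 6.96 and 6.81 with TPA, then 6.27 and 6.30 under ZnCl2. TPA exceeded ZnCl2 by 0.60 ± 0.15 (SE, 1.51-fold, limma adjusted p = 0.0067). The differences from control, 0.39 ± 0.15 for TPA (limma adjusted p = 0.115) and -0.21 ± 0.15 for ZnCl2 (0.538), did not pass. Without TPA replicate 1 the TPA to ZnCl2 difference was 0.53 with limma adjusted p = 0.0612. A score in a bulk library cannot be split into the share of cells with the region open and the opening per cell.

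A further intronic region of EHF at 34644121 to 34645850, in the second intron, was open in control replicate 2 and both TPA libraries, at percentiles of 42.8, 53.7 and 25.7, and in no ZnCl2 library. The downstream region at 34681171 to 34682090 was gained with TPA, open in both TPA libraries (15.9 and 32.2) and in no other, and was 910 and 400 bp wide. The open length of the EHF locus was 4020 and 4280 bp with TPA against 3620 and 2600 bp with ZnCl2 and 2270 and 4998 bp in the controls. TPA therefore lay above ZnCl2 without overlap (exact permutation p = 0.333, the smallest that 2 libraries against 2 allow). With lists of equal length the difference in mean open length turned to -105 bp. The remaining region, at 34599031 to 34601560, straddles the upstream edge of the locus and was open in 4 libraries, but the call lay inside the locus only in control replicate 2 (52.3).

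ELF3 (chromosome 1, 202007945 to 202017183, plus strand), the other ETS gene, had an open canonical start in 4 of 6 libraries, at percentiles of 45.6 in control replicate 2, 28.5 and 25.7 with TPA and 55.0 in ZnCl2 replicate 1. The start at 202007945 was open in control replicate 2 (45.6) and ZnCl2 replicate 1 (15.8), and the noncoding starts at 202012445 and 202013778 in ZnCl2 replicate 1 alone (55.0). Its most accessible chromatin lay at and beyond the 3′ end of the gene. The merged region from 202014631 to 202019880 spans the last exon and the flank because a call of control replicate 2 does. In every other library its score came from a call starting at 202017391 or later, past the gene end. Separate, lower calls over the last exon were made in TPA replicate 1 (3.39) and ZnCl2 replicate 1 (45.1). Control replicate 1, TPA replicate 2 and ZnCl2 replicate 2 had none there. The merged region had percentiles of 73.3 and 74.1 in the controls, 90.1 and 91.1 with TPA, then 70.0 and 21.6 under ZnCl2. Both TPA libraries exceeded all others. TPA was above ZnCl2 by 0.76 ± 0.17 on the log2 scale (1.69-fold, limma adjusted p = 0.00302) and above control by 0.48 ± 0.17 (1.39-fold, limma adjusted p = 0.0842), the first past the threshold and the second not. Without ZnCl2 replicate 2 the first difference was 0.58 with limma adjusted p = 0.0598.

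Farther downstream of ELF3, the region at 202028741 to 202030380 had percentiles of 72.0 and 62.1 in the controls, 91.1 and 86.9 with TPA, 43.5 in ZnCl2 replicate 1 and no call in ZnCl2 replicate 2. ZnCl2 replicate 2 had no score there, so that the region was not among the 17 tested. In the fit without ZnCl2 replicate 2, where the lone ZnCl2 library is assumed to vary like the other groups, TPA exceeded ZnCl2 by 1.01 on the log2 scale (limma adjusted p = 0.0103). With an equal number of regions per list it met the rule for a loss with ZnCl2. The region at 202034001 to 202035650 was open in all 6 libraries at a mean percentile of 89.4 ± 5.0 (SD, n = 6), the highest of those open in all libraries outside start sites at this gene. Its log2 differences from control were -0.20 ± 0.15 with TPA and 0.02 ± 0.15 with ZnCl2, with limma adjusted p = 0.456 and 0.961. There the TPA libraries, at 91.1 and 85.9, lay within the range of the others, 81.1 to 94.8. The region between them and the gene, at 202021321 to 202023860, had percentiles of 47.9 and 44.2 in the controls, 68.1 and 69.1 with TPA, then 67.5 and 21.6 under ZnCl2, and a TPA to control difference of 0.40 ± 0.19 (limma adjusted p = 0.222).

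GRHL2 (chromosome 8, 101492439 to 101669726, plus strand) had a canonical start that was open in 1 library. The call was made in TPA replicate 2, at percentile 94.1, and was 50890 bp wide, from 101445361 to 101496250. TPA replicate 2 had 998 calls over 10 kb, against between 29 and 157 in the other libraries. The call joined several regions of the other lists into 1 merged region of 51000 bp, which reaches beyond the locus. The merged region passed the test between TPA and ZnCl2 (0.87 ± 0.15 on the log2 scale, limma adjusted p = 0.000626). Its scores in both controls, TPA replicate 1 and ZnCl2 replicate 2, however, come from calls outside the locus, and it could not be fitted once calls over 10 kb were left out. Inside the locus, a narrower region upstream of the start, between 101473871 and 101475340, had percentiles of 64.4 and 68.2 in the controls, 70.3 in TPA replicate 1 and 64.8 in ZnCl2 replicate 1, and no call in ZnCl2 replicate 2.

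Other open chromatin of GRHL2 lay in its introns. A region in the eleventh intron, at 101633741 to 101636530 and just upstream of the start of a noncoding transcript, was open in all 6 libraries, at percentiles of 42.6 and 73.4 in the controls, 79.3 and 59.9 with TPA, then 45.1 and 9.41 under ZnCl2. TPA exceeded ZnCl2 by 0.52 ± 0.18 on the log2 scale (limma adjusted p = 0.0412), and the difference lost significance on leaving out any library other than TPA replicate 2. It was 0.29 without TPA replicate 1 (limma adjusted p = 0.42), 0.42 without ZnCl2 replicate 2 (0.255) and 0.49 without ZnCl2 replicate 1 (0.138), and 0.54 and 0.53 without control replicates 1 and 2 (0.0593 and 0.0572). A region in the eighth intron at 101607371 to 101608810 was lost with ZnCl2. It was open in both controls (42.6 and 48.4) and was higher in both TPA libraries (72.2 and 67.0). The noncoding start at 101632226 was closed in every library. In all, 3, 10, 6, 8, 6 and 1 regions were called at GRHL2 in control replicates 1 and 2, TPA replicates 1 and 2 and ZnCl2 replicates 1 and 2.

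GRHL3 (chromosome 1, 24199558 to 24364482, plus strand) had the largest number of merged regions, 18 of the 60, and several start sites that behaved differently. The canonical start at 24319357 was open in control replicate 2 (22.2) and ZnCl2 replicate 1 (12.9). The neighboring start at 24318764 was open in both TPA libraries (60.7 and 45.4) and lower in control replicate 2 (17.1) and ZnCl2 replicate 1 (12.9). The internal start at 24323040, whose upstream sequence is shown above, was open in all 6 libraries, at 58.9 and 70.6 in the controls, 56.6 and 43.7 with TPA, then 48.4 and 0.0 under ZnCl2. Its log2 score difference was -0.57 ± 0.18 for ZnCl2 against control (limma adjusted p = 0.138) and -0.28 ± 0.18 for TPA against control (limma adjusted p = 0.377). The starts at 24199558 and 24337498 were closed in every library.

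Upstream of the canonical GRHL3 start, in an intron of a transcript that starts farther upstream, the region at 24289467 to 24292956 was open in all 6 libraries. Its percentile was 81.7 and 74.1 in the controls, 83.6 and 72.9 with TPA, then 59.7 and 4.90 under ZnCl2. The ZnCl2 libraries lay below the other 4. TPA exceeded ZnCl2 by 0.63 ± 0.19 (1.54-fold, limma adjusted p = 0.0246). ZnCl2 was below control by -0.65 ± 0.19 (limma adjusted p = 0.12), and the difference between TPA and control was -0.03 ± 0.19 (limma adjusted p = 0.956). Without TPA replicate 1 the first difference fell to 0.44 (limma adjusted p = 0.222), and without ZnCl2 replicate 2 to 0.39 (limma adjusted p = 0.277). A neighboring region at 24285157 to 24287146 was gained with TPA, at low percentiles of 3.39 and 32.2.

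TFAP2A (chromosome 6, 10393186 to 10419659, minus strand) and TFAP2C (chromosome 20, 56629306 to 56639283, plus strand) were the genes with broad open promoters. At TFAP2A a single merged region of 12390 bp covered 7 of its 8 start sites, of which 4 were open in all 6 libraries, 2 in 5 and 1 in 2, and the canonical start had percentiles of 45.1 and 75.3 in the controls, 65.9 and 64.8 with TPA, then 74.4 and 35.2 under ZnCl2. The eighth start, at 10404594, lay in a separate and higher region (10402401 to 10406150) at 69.2 and 89.5, 82.1 and 95.2, and 89.0 and 80.3 in the same order. At TFAP2C the region over both start sites had 56.8 and 83.3 in the controls, 69.2 and 75.6 with TPA, then 80.6 and 69.3 under ZnCl2. The groups overlapped at each of these starts, and the differences in mean percentile at the canonical starts were between -5.42 and 10.5 with exact permutation p of 0.667 or 1. Non-overlapping groups were thus found at 0 of the 2 genes in each comparison. Of genes with a canonical start open in all 6, 34.2% had non-overlapping groups between TPA and control, 15.9% between ZnCl2 and control and 39.4% between TPA and ZnCl2. By log2 score none of the 3 regions passed in any comparison, with differences between -0.27 ± 0.16 (TFAP2C, TPA against ZnCl2) and 0.23 ± 0.17 (the internal start of TFAP2A, TPA against control).

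OVOL1 (chromosome 11, 65787063 to 65797214, plus strand) had a closed canonical start although the 1000 bp upstream of it hold 102 CpG, the most among the 9 genes. The median was 53 for coding genes open in all 6 libraries and 17 for those open in none, and the other members had 76 (TFAP2C), 45 (TFAP2A), 35 (GRHL2), 18 (SOX15), 16 (ELF3), 11 (TP63), 8 (GRHL3) and 6 (EHF). The noncoding start at 65790129 was closed in every library too. An internal OVOL1 start at 65793709, of a coding transcript, lay in a region gained with TPA (39.6 and 3.39) that was also open in ZnCl2 replicate 1 (25.8) and in no control. The region called in all 6 libraries, at 65778501 to 65783440, is at the promoter of the neighboring gene AP5B1. Its percentile ranged from 0.0 to 55.8, with 0.0 and 55.8 in the controls, 0.0 and 20.7 with TPA, then 55.0 and 4.90 under ZnCl2.

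SOX15 (chromosome 17, 7588178 to 7590094, minus strand) is the shortest of the genes and lies among 6 other coding genes, so that its open chromatin is shared with them. Its start had percentiles of 31.0 and 63.9 in the controls, 41.5 and 51.8 with TPA, 57.5 in ZnCl2 replicate 1 and no call in ZnCl2 replicate 2, in a region of 5340 bp that also overlaps MPDU1 and FXR2. The region downstream of SOX15 at 7571921 to 7575300, over the promoter of EIF4A1, a translation initiation factor gene, had the highest mean percentile outside start sites of any member, 91.3 ± 4.48 (SD, n = 6). Neither it nor the region at 7575441 to 7585330, over the promoters of CD68 and MPDU1, passed in any comparison, with log2 differences between -0.14 and 0.20.

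**Figure D3:**
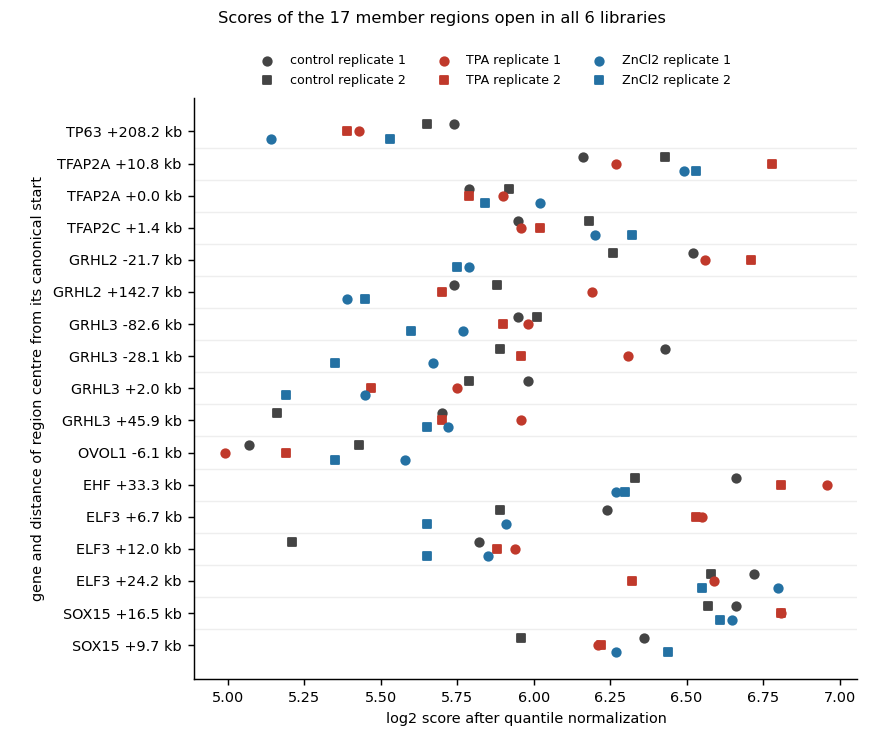
Quantile-normalized log2 score (horizontal axis) of the 17 regions open in all 6 libraries (rows, by gene and distance of the region center from its canonical start in kb), with color for the condition and shape for the replicate. At EHF +33.3 kb and ELF3 +6.7 kb both TPA libraries lie to the right of all others, and at GRHL3 -28.1 kb both ZnCl2 libraries lie to the left of all others.

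Taking the loci as a whole, 60 of the 49527 merged regions overlapped them, from 2 at TFAP2C and OVOL1 to 18 at GRHL3. Of these, 17 (28.3%) were open in all 6 libraries and 10 (16.7%) in 1, beside 32.0% and 16.7% of all merged regions, and 9 were closed in ZnCl2 replicate 2 alone. By place, 10 were at start sites, 6 in exons, 24 in introns, 8 in the upstream and 12 in the downstream flank. Start sites held 6 of the 17 regions open in all libraries and introns held 3. The 6 include the broad GRHL2 region, although the GRHL2 start in it was open in 1 library. A library had between 16 (ZnCl2 replicate 2) and 52 (control replicate 2 and TPA replicate 2) regions in the 9 loci, and each gene had at least 1 region in each library. The members' regions had median percentiles of 45.1 and 48.4 in the controls, 43.4 and 45.4 with TPA, then 44.3 and 21.6 under ZnCl2.

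The open share of the loci differed widely between genes. Averaged over libraries it was 30.1% at SOX15, 22.4% at TFAP2A, 9.12% at TFAP2C, 7.98% at GRHL3, 7.62% at OVOL1, 4.78% at GRHL2, 4.42% at EHF and 2.31% at TP63. At ELF3 it ran from 10.9% in ZnCl2 replicate 2 to 35.1% in control replicate 2. These shares depend on locus length, which runs from 41917 bp (SOX15) to 305888 bp (TP63). The median over the 9 genes was above the median over all coding loci in every library, for example 4.46% against 2.29% in control replicate 1 and 6.76% against 2.91% in ZnCl2 replicate 2. Groups did not overlap at 0 of 9 genes between TPA and control (8.74% of coding loci) and at 0 between ZnCl2 and control (5.26%). For TPA against ZnCl2 they did not overlap at 2 of 9 genes, TFAP2A and EHF, both with more open length with TPA, against 37.6% of coding loci. At TFAP2A the lengths were 14220 and 15020 bp with TPA, 13640 and 11070 bp with ZnCl2 and 11570 and 23740 bp in the controls (exact permutation p = 0.333 for TPA against ZnCl2).

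**Figure D4:**
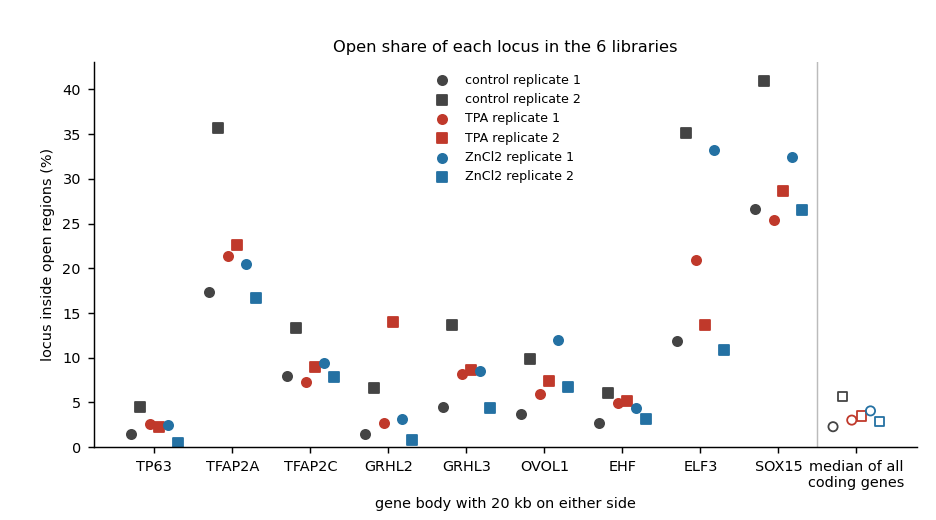
Share of each locus inside open regions (vertical axis, %) in the 6 libraries, with open symbols at the right for the median of all coding loci. SOX15 and TFAP2A lie above TP63, TFAP2C and EHF in every library, and control replicate 2 is the highest library at 7 of the 9 genes.

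Score changes were tested with limma over the 15852 merged regions called in all 6 libraries, 17 of which lie in the 9 loci. For TPA against control, 0 of the 17 passed an adjusted p of 0.05, against 7.65% of all regions tested, and 3 (17.6%) had an unadjusted p under 0.05, against 23.2% of all. For ZnCl2 against control, 0 of the 17 passed, against 0.618%, and 4 (23.5%) had an unadjusted p under 0.05, against 15% of all. The median log2 difference over the 17 was 0.06 with TPA and 0.01 with ZnCl2, beside 0.02 and 0.01 over all regions. Both comparisons used the same control libraries.

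Between TPA and ZnCl2, 5 of the 17 regions passed and all 5 were higher with TPA: 2 at GRHL2 and 1 each at GRHL3, EHF and ELF3. With calls over 10 kb left out, which removes the broad GRHL2 region from the test, 4 of 15 passed, all higher with TPA. Over all regions 11.6% were higher and 12.4% lower with TPA than with ZnCl2, beside 29.4% and none of the members. The median log2 difference was 0.16 over the 17 and 0.0 over all. This split depends on scaling. With median centring in place of quantile normalization the same comparison gave 5 higher and 1 lower at the members, the lower one being the AP5B1 promoter region upstream of OVOL1 (-0.59, limma adjusted p = 0.0303), and the share of all called regions that were higher with TPA fell from 48.3% to 35.4%. With the normal score of the percentile it was 84.3%, where the median difference of all regions was 0.3, and 3 of the 17 members were called.

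**Figure D5:**
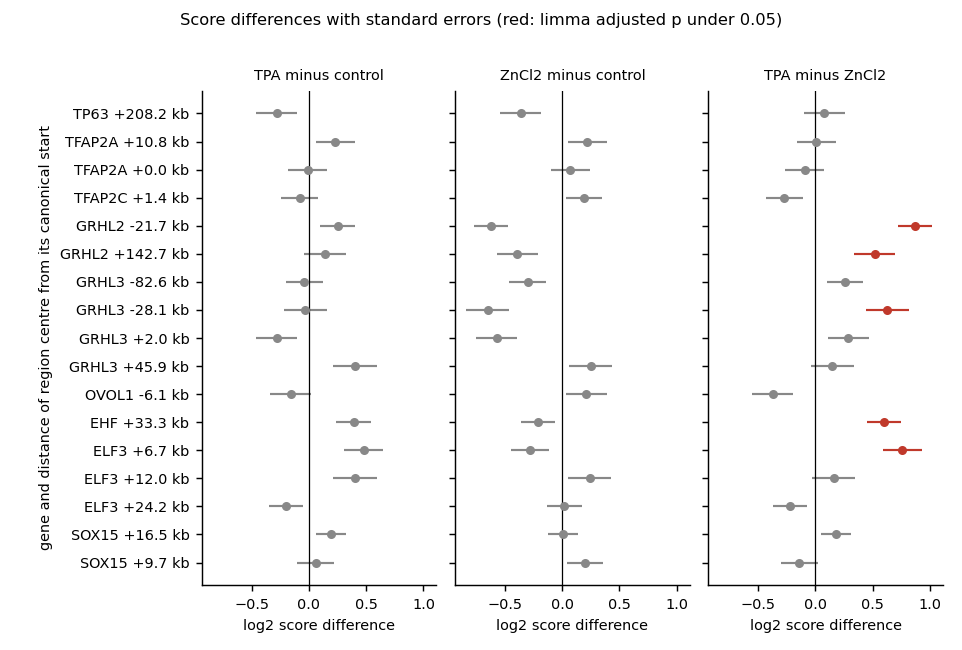
Log2 score difference (points) with its standard error (bars) of the 17 regions for TPA minus control, ZnCl2 minus control and TPA minus ZnCl2, in red where limma's adjusted p was under 0.05. The 5 red points are in the last panel and lie between 0.52 and 0.87.

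Regions that appeared or disappeared were few. With all calls, 3 of the 60 member regions (5.0%) were gained with TPA, that is open in both TPA libraries and neither control, against 2.04% of all regions: one each at GRHL3, OVOL1 and EHF. None was lost with TPA (0.703% of all). With ZnCl2 none was gained (0.172% of all) and 2 were lost (3.33%, against 1.73%), one each at TP63 and GRHL2. The lists of control replicate 1 and ZnCl2 replicate 2 were the shortest, and the part of list length in these counts was not tested beyond lists of equal length. With the 18887 highest scoring regions of each list, 32 of 26212 merged regions lay in the loci. With TPA 2 were then gained (3.79% of all), at TP63 (189841161 to 189842290) and GRHL3 (24293227 to 24295586), and 2 were lost (4.55%), at TP63 (189838921 to 189840310) and the start of SOX15 (7586511 to 7591790). With ZnCl2 1 was gained (3.2%), at the AP5B1 promoter upstream of OVOL1 (65779021 to 65782410), and 2 were lost (3.64%), at TP63 (189710591 to 189711420) and ELF3 (202028741 to 202030380). The regions named with all calls and those named with lists of equal length were different ones.

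Among 19 related factors of epithelium, 8 had a canonical start open in all 6 libraries, 4 in some and 7 in none. The 7 closed ones were the paralogues TP73, TFAP2B, TFAP2D, OVOL3 and ELF5, together with ZNF750, a terminal differentiation factor of epidermis, and SOX2, a stem cell factor. The 8 open ones included GRHL1, the third grainyhead-like gene, at percentiles of 37.1 and 79.6 in the controls, 84.7 and 80.4 with TPA, then 80.6 and 43.9 under ZnCl2. At TEAD4, a Hippo pathway factor, the percentile was 80.8 and 81.1 in the controls, 35.4 and 38.3 with TPA, then 83.4 and 63.6 under ZnCl2. TPA groups did not overlap control at 3 of the 8, higher at GRHL1 and lower at TEAD4 and CEBPB. ZnCl2 did not overlap control at 1, lower at KLF4. TPA lay above ZnCl2 without overlap at KLF4 and SNAI2, and below it at KLF5 and TEAD4. The shares over all coding genes given above for these 3 comparisons apply here too.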

How the data were processed

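ATAC-seq was measured in 6 libraries of MCF10A cells. The authors trimmed reads with BBDuk, mapped pairs to hg38 with HISAT2 2.1.0 and called open regions with HMMRATAC per library, and the runs of a library were combined. The deposited lists hold 1 score per region, whole and at least 30, whose kind is not given in the sources used here. The authors' later steps, which need reads, and their removal of blacklisted regions were not repeated. Regions on other contigs, between 72 and 203 per library, were left out.

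Groups and replicate numbers came from the labels. Regions were joined across libraries at 1 bp of overlap, keeping the highest score per library, and a joined region counted for a gene when it overlapped the locus, even where part of it or a library's own call lay outside. Log2 scores were quantile normalized over regions called in all 6 libraries and tested with limma 3.58.1 (R 4.3.3) with a trend, all 6 libraries in 1 fit and Benjamini-Hochberg adjustment over all regions at 0.05. For values per gene an exact permutation test was used, two-sided, whose smallest p here is 0.333. A count test could not be used without reads. Without depth no interval could be given.

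Start sites, exons and introns came from GENCODE release 44, and the windows are 1000 bp upstream of each start. The rule named the start sites of the 9 genes, each region gained, lost or past the threshold, and the region outside start sites open in all libraries with the highest mean percentile. Other regions described at EHF, ELF3, GRHL2 and SOX15, and those shown for their sequence, fall outside it and were chosen after their values were seen. Some start sites of TFAP2A and EHF are given as counts. Related factors were named where closed in every library or where groups did not overlap. The genes, lists and motifs were chosen with earlier results of these data known. The fits and permutation tests were tested on simulated data. For TPA and ZnCl2 against control, the fit recovered 92% and 91% of simulated log2 changes of 1.0. It recovered 11% and 14% of those of 0.5, so that most changes of that size would be missed. Among regions left unchanged in the simulation, 10 and 6 were called in these comparisons. Recovery is not given for TPA against ZnCl2. Computation used Python 3.11.15, NumPy 2.4.6, pandas 2.3.3, SciPy 1.17.1 and Matplotlib 3.10.9. Alternatives were another scaling, measure, list length, merging, set of regions, flank, promoter window and overlap, all contigs, the replicate number as a block, and leaving out each library in turn. Leaving out calls over 10 kb was an alternative chosen after seeing the data. Some genes of the marker and related lists are not reported here by name.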

Additional observations from a re-analysis of the deposited data

How the results depend on the processing

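Of 143 alternative values for the counts above, 90 stayed within 1.5 times the reported one and 53 moved. Of 430 for single regions and genes, 394 were labelled the same, 17 lost their call, 4 gained one, 15 moved and 0 reversed. Only region scores have a call that can be lost, gained or reversed. For values per gene, the same means a mean difference that shifted by less than 1 within-group SD, which allows a change of sign. At the canonical start of TFAP2A the TPA to control difference in percentile went from 5.09 to -10 without control replicate 1. Between TPA and control no member region was called under any alternative run, which does not show that scores were equal. Between ZnCl2 and control the count of 0 became 1 with median centring and 1 with a flank of 50 kb. Between TPA and ZnCl2 the 5 regions became 3 with the normal score and 3 with lists of equal length. They became 1 with the upper 50% of each list, 1 with regions called in at least 4 libraries and 8 with a flank of 50 kb. The cause was not tested, though lists of equal length and the upper 50% also leave fewer regions to test. On leaving out 1 library fewer regions were called, and not always the same ones. Without ZnCl2 replicate 2 the log2 differences at the 5 regions ran from 0.39 (GRHL3) to 0.79 (the broad GRHL2 region), against 0.52 to 0.87 with all libraries. Regions not scored in that library then entered the test, among them TFAP2A at 10429341 (0.78) and ELF3 at 202028741 (1.01).

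Gained or lost regions numbered 5 to 16 (without control replicate 2) in place of 3 for TPA, and 2 to 13 (without control replicate 1) in place of 2 for ZnCl2, where dropping the flank left 1. With 1 library left in a group the rule is easier to meet. The canonical starts open in every library fell from 2 to 1 with the upper 50% of each list. Start sites with non-overlapping groups, 0 in the report, numbered 0 to 2 between TPA and control, 0 to 2 between ZnCl2 and control and 0 to 2 between TPA and ZnCl2 on leaving out 1 library, and 1 and 2 in the latter comparisons with lists of equal length. For open length between TPA and control, 0 became 3 with lists of equal length, 1 with the upper 50%, 1 with no flank, 1 as a share of the library's open length and 1 to 8 without 1 library. Between ZnCl2 and control 0 became 4, 1 (upper 50%), 3 (share) and 1 to 8 in the same order. Between TPA and ZnCl2 2 became 4 with lists of equal length, 1 with no flank, 4 with a flank of 50 kb, 4 as a share and 4 to 6 without 1 library.

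Same-numbered libraries correlated by 0.137, 0.0277 and 0.0422 in their deviations from the group means. These low values do not show whether same-numbered libraries were prepared together, and the main fit used no pairing. With the replicate number as a block, 2 regions passed between ZnCl2 and control, both lower (GRHL2 at 101445251, limma adjusted p = 0.046, and GRHL3 at 24289467, limma adjusted p = 0.0447). Gained or lost regions averaged 14 for TPA and 24.5 for ZnCl2 within replicate numbers in this block.

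The lists hold no reads, so that depth is unknown and no counting error can be given. With 2 libraries a group, values per gene cannot pass a permutation test.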
